A study of Mus musculus with 4 samples.

Results

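The genes described here are the ligands Tgfb1 and Tgfb3, the receptors Tgfbr1, Tgfbr2 and Tgfbr3, the signal carriers Smad2 and Smad3, the inhibitor Smad7, and the nuclear repressors Ski and Skil. They were chosen by name as the receptor and SMAD arm of the transforming growth factor beta (TGF-beta) pathway, and each takes its value from the probe set that the platform annotation assigns to that symbol alone. All 10 had such a probe set, exactly 1 each, among 19938 genes measured. RNA came from spleen CD4+ cells of C57BL/6 mice. The 2 wild type samples were normal CD4+ splenocytes, and the 2 lymphoma samples were CD4+ lymphoma cells collected from spleens of mice with a homozygous gene trap (a cassette inserted to interrupt the transcript) at Tet2, a DNA dioxygenase that oxidises methylated cytosine. Each sample was hybridised to 1 single-colour array. The sources used here give neither ages nor whether samples of a group came from different mice, so the p-values measure the spread between these samples, which may be technical. No sample of non-malignant cells with the trap was analysed here, so the trap and the tumour cannot be told apart.

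TGF-beta is secreted in a latent form and has to be freed before it can bind. Active ligand is bound by the type II receptor TGFBR2, often after capture by the co-receptor betaglycan (TGFBR3), and TGFBR2 then activates the type I receptor TGFBR1. The type I receptor phosphorylates SMAD2 and SMAD3, which join SMAD4 and act on genes in the nucleus, while SMAD7 blocks the receptor and SKI and SKIL (also called SnoN) hold SMAD complexes in a repressed state. In CD4+ T cells this signal is known to restrain activation and to take part in the formation of regulatory T cells and of some inflammatory helper cells.

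The co-receptor Tgfbr3 fell in lymphoma. It was 3.09-fold lower and was the 1 gene of the 10 that passed an adjusted p under 0.05 in limma. Tgfbr2 lay close to that threshold at a 2.00-fold lower level (adjusted p = 0.066). None of the 10 rose, and Smad3 had the highest difference at 0.50 on the log2 scale (adjusted p = 0.21). Among all genes tested, 4.27% passed (1.82% higher and 2.46% lower), so 1 of 10 is little above the background. At an unadjusted p under 0.05 the genes were 3 of 10 (Tgfbr2, Tgfbr3 and Smad3), against 15.6% of all genes. The groups did not overlap for 6 of the 10, against 44.1% of all genes: 4 were lower (23.5% of all genes) and 2 higher (20.6% of all genes). The median log2 difference, lymphoma minus wild type, was -0.22 over the 10 genes and -0.04 over all genes. The 10 genes were chosen with earlier results of these data known, so none of these comparisons can be read as an enrichment. The exact permutation test of a single gene cannot go below a two-sided p of 0.333 with 2 samples against 2, so only the fit across genes is given.

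**Figure D1:**
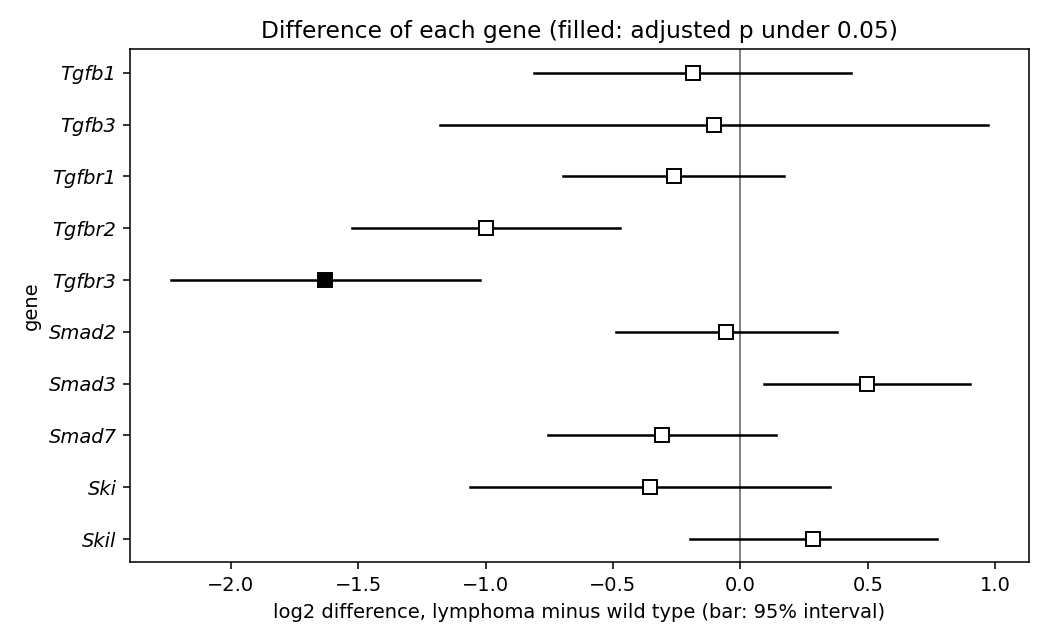
Difference of each of the 10 genes between lymphoma and wild type CD4+ cells (x axis, log2 units, lymphoma minus wild type; 2 arrays per group), with the 95% interval from limma as a bar and a filled square where the adjusted p was under 0.05. The intervals of Tgfbr2 and Tgfbr3 lie below 0, that of Smad3 lies above 0, and the other 7 include 0.

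The state of the samples sets the frame for these values. The log2 intensity of the Tet2 probe set was 9.94 and 9.99 for wild type and 9.22 and 8.64 for lymphoma. The mean changed by -1.03 (SE 0.24, adjusted p = 0.077 in limma), which did not pass the threshold. Under the other processing choices that kept every array, limma gave adjusted p-values from 0.054 to 0.15. Dropping single arrays moved the Tet2 estimate between -1.32 and -0.74. Arrays of the same number shared more identical intensity values (3.10% for arrays 1 and 3.24% for arrays 2) than any other pair of arrays (at most 0.42%), and the sources used here do not say why. For that reason differences within equally numbered arrays are also given below. The T cell list had 0 of 6 measured genes past the threshold (5 at an unadjusted p under 0.05), and its summed linear intensity was 22520 to 22841 in wild type and 26581 to 27811 in lymphoma. The mean log2 difference of these 6 was 0.21 and the median 0.39. Cd5 was at -0.92, with both lymphoma values below wild type, and the other 5 were positive, up to 0.63 for Cd3d. B cell markers passed the threshold as lower for 7 of 8 genes (summed intensity 12514 to 18742 in wild type, 2633 to 2841 in lymphoma). Dendritic cell markers did so for 6 of 8 (4372 to 5241, then 893 to 897), and macrophage and monocyte markers for 5 of 8 (8331 to 8617, then 2225 to 3685). All 8 measured genes of each of these lists had negative differences. No gene passed among 2 CD8 T cell markers (692 to 1241, then 385 to 424; both at an unadjusted p under 0.05), 4 regulatory T cell markers (6742 to 7249, then 8789 to 13511; 2 unadjusted), 5 natural killer markers (654 to 779, then 924 to 1167; 2 unadjusted) or 8 stromal and endothelial markers (2112 to 2322, then 1560 to 1571; 1 unadjusted). Nor did any of 5 platelet markers (604 to 674, then 565 to 586; 0 unadjusted) or 3 erythroid markers (361 to 523, then 334 to 830; 0 unadjusted). The natural killer genes had mixed signs, with a median log2 difference of -0.50. Eomes was higher (0.83), Ncr1 (-0.85), Klra8 (-0.53) and Klrb1c (-0.50) were lower, and Klre1 differed by 0.02. In such bulk samples, fewer cells of a type and less RNA per cell cannot be told apart. The part of these cell type differences in the results below was not tested.

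Tgfb1 encodes the main TGF-beta of lymphoid tissue. Its log2 intensity was 11.36 and 10.65 on wild type arrays 1 and 2 and 10.87 and 10.76 on lymphoma arrays 1 and 2. Both lymphoma values lay between the wild type values, and the wider spread was in wild type, where the arrays differed by 0.71. The difference was -0.19 (95% interval -0.81 to 0.43, adjusted p = 0.84 in limma), and it was 0.17 without wild type array 1. Tgfb3, a second isoform with the same receptors, read 7.57 and 7.24 in wild type and 8.01 and 6.59 in lymphoma. Here the lymphoma arrays lay on either side of the wild type pair, 1.42 log2 units apart. The difference of -0.10 had an interval of -1.18 to 0.97 (adjusted p = 0.96). It became 0.61 when lymphoma array 2 was left out and 0.059 when wild type array 1 was. No direction can be given for either ligand.

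**Figure D2:**
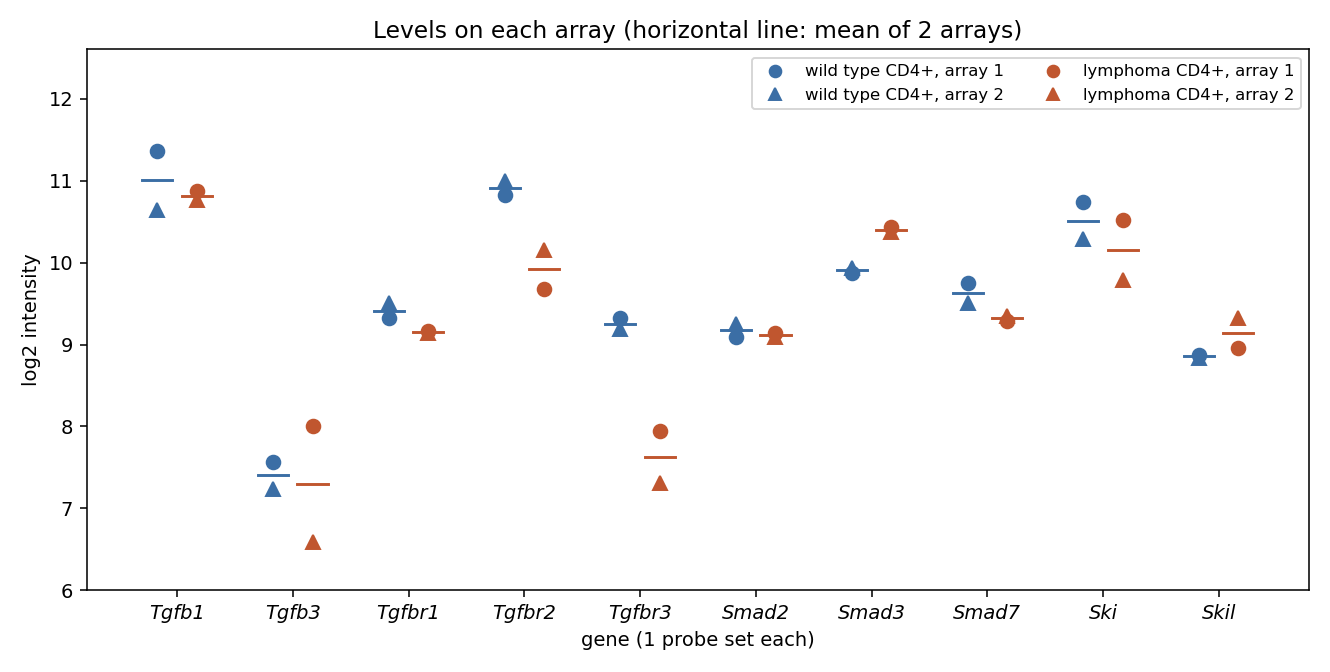
Log2 intensity of each of the 10 genes (x axis) on the wild type (blue) and lymphoma (orange) arrays, with circles for array 1, triangles for array 2 and a line at the mean of each group. Values may be compared within a gene and not between genes, since probes differ; both lymphoma points lie below both wild type points for Tgfbr1, Tgfbr2, Tgfbr3 and Smad7 and above them for Smad3 and Skil.

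Among the receptors, Tgfbr3 showed the largest difference of the 10 genes. Its log2 intensity was 9.32 and 9.19 in wild type and 7.94 and 7.31 in lymphoma. Both lymphoma arrays lay more than 1 log2 unit below both wild type arrays. The mean fell by 1.63 (SE 0.25, 95% interval -2.23 to -1.02, adjusted p = 0.022 in limma), from 9.25 ± 0.09 to 7.63 ± 0.45 (SD, n = 2 each). Within equally numbered arrays the difference was -1.38 for number 1 and -1.88 for number 2. The call ended with p-values adjusted over all 35556 probe sets (adjusted p = 0.064 in limma). It also ended in both fits that kept a single wild type array. No gene at all was called in those fits, so they cannot weigh Tgfbr3. The Tgfbr3 estimate stayed negative there, at -1.56 with wild type array 1 dropped and -1.69 with wild type array 2 dropped. Dropping lymphoma array 1 gave an estimate of -1.94, and dropping lymphoma array 2 gave -1.31.

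Tgfbr2, the receptor that binds ligand first in the signalling complex, read 10.83 and 11.00 in wild type and 9.68 and 10.16 in lymphoma. The groups did not overlap, and lymphoma array 1 was the lower of its pair, the reverse of the order seen for Tgfbr3. The difference was -0.998 (SE 0.22, 95% interval -1.52 to -0.47), with -1.15 and -0.85 within arrays numbered 1 and 2. It did not pass the threshold in the main comparison. It passed with a robust variance trend (adjusted p = 0.047 in limma) and without lymphoma array 2 (-1.24, adjusted p = 0.0018), when 1 lymphoma array stood for the group and was assumed to vary like wild type.

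Tgfbr1, the kinase that phosphorylates SMAD2 and SMAD3, read 9.32 and 9.51 in wild type and 9.16 and 9.14 in lymphoma. Its lymphoma values were nearly identical and lay just below the wild type values. The difference of -0.26 (95% interval -0.70 to 0.17, adjusted p = 0.62) was not separated from 0, and it was -0.17 without wild type array 2. The 3 receptors thus had differences of -0.26, -0.998 and -1.63, and all 3 had groups that did not overlap, against 23.5% of all genes lower in this way. Whether the receptors differed from each other was not tested.

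Promoter sequences are shown for Tgfbr1 and Tgfbr2, the kinase pair of the signalling complex, and for Smad3, the 1 gene of the 10 that was higher at an unadjusted p under 0.05. They hold the 250 bases before the outermost annotated start, from RefSeq on GRCm38.p6, where 5 of the 10 genes had an entry. Tgfbr3 had none, and the windows of Tgfb1 and Ski are not shown. Capitals mark CG dinucleotides, the sites where cytosine methylation mostly falls in mammals and thus the main substrate of TET enzymes. Tgfbr1 is at chr4:47352972-47353221 on the plus strand, Tgfbr2 at chr9:116175364-116175613 on the minus strand and Smad3 at chr9:63757995-63758244 on the minus strand.
Tgfbr1: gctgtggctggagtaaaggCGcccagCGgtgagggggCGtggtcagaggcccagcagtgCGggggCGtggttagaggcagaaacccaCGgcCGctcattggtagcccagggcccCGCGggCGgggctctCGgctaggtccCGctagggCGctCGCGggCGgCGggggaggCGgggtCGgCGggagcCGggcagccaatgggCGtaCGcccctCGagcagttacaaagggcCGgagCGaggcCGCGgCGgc
Tgfbr2: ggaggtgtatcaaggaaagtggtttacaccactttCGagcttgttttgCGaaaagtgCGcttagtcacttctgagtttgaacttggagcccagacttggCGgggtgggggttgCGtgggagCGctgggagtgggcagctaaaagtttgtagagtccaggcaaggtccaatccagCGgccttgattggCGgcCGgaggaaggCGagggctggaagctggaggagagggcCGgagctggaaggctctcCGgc
Smad3: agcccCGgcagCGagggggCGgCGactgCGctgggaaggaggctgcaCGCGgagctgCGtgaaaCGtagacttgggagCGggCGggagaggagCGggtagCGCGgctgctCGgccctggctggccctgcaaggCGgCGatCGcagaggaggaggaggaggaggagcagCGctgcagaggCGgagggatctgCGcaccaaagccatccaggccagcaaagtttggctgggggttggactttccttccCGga
The Tgfbr2 window held 12 CG dinucleotides, the Smad3 window 22 and the Tgfbr1 window 29, against a median of 6 over 32851 promoter windows of the same length. Fewer were held by 66.5% of all windows for Tgfbr2, 85.2% for Smad3 and 93.2% for Tgfbr1. The motif CAGAC (or GTCTG, the same letters on the other strand), the core of an element bound by SMAD3 and SMAD4, occurred once in the Tgfbr2 window, starting 160 bases before the start. It was in neither of the other windows shown and in 42.2% of all windows. The GC box GGGCGG (or CCGCCC on the other strand) occurred 2 times in each of the Tgfbr1 and Smad3 windows, not in the Tgfbr2 window, and in 32.7% of all windows. These matches describe the letters only, and methylation was not measured here.

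Smad2 and Smad3 are the SMADs that the receptor phosphorylates. Smad2 read 9.09 and 9.25 in wild type and 9.15 and 9.09 in lymphoma. All 4 arrays lay within a narrow band, and the groups overlapped. Its difference of -0.05 had a 95% interval of -0.49 to 0.38 (adjusted p = 0.95 in limma), and it was 0.026 without wild type array 2. Smad3, the DNA-binding partner in the same step, read 9.88 and 9.94 in wild type and 10.43 and 10.38 in lymphoma. The arrays of each group lay within 0.06 log2 units of each other, and both lymphoma values were above both wild type values. The difference was 0.50 (SE 0.17, 95% interval 0.09 to 0.90), 0.55 and 0.44 within arrays numbered 1 and 2, and it did not pass over all genes (adjusted p = 0.21). On the same arrays 5 of the 6 T cell markers had positive differences, and Cd5 was at -0.92. The mean of the 6 was 0.21 and their median 0.39, and the mean of Cd3d, Cd3e and Cd3g alone was 0.48. The part of T cell content in the Smad3 difference was not tested. A test of Smad3 against Smad2 was not made.

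Smad7, the inhibitory SMAD, which TGF-beta itself induces, read 9.75 and 9.51 in wild type and 9.29 and 9.35 in lymphoma. The lymphoma values were close together and below both wild type values. The difference was -0.31 (95% interval -0.75 to 0.14, adjusted p = 0.54 in limma), and it was -0.19 without wild type array 1.

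Of the nuclear repressors, Ski read 10.73 and 10.28 in wild type and 10.52 and 9.79 in lymphoma. The groups overlapped, and array 1 was the higher of the pair in both groups. The difference of -0.36 (95% interval -1.06 to 0.35, adjusted p = 0.70 in limma) was 0.0063 without lymphoma array 2. Skil, a relative of Ski whose gene is induced by TGF-beta, read 8.87 and 8.84 in wild type and 8.96 and 9.32 in lymphoma. Both lymphoma values were higher, and lymphoma array 1 was only slightly so. The difference was 0.29 (95% interval -0.20 to 0.77, adjusted p = 0.63), with 0.09 within arrays numbered 1 and 0.48 within arrays numbered 2. It was 0.11 when lymphoma array 2 was left out and 0.47 when lymphoma array 1 was.

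The wider pathway was followed with 7 lists that hold 67 measured genes, the 10 above included. Of the 67, 4 rose, 3 fell and 60 did not pass, or 10.4% called against 4.27% of all genes. The lists were chosen with earlier results of these data known, so this share cannot be read as an enrichment. The medians of the 7 lists lay between -0.39 (receptors and co-receptors) and 0.11 (nuclear repressors).

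Of 14 genes for ligands, latency and activation, Itgb8 rose, Nrros fell and 12 did not pass. Itgb8 encodes the beta 8 integrin chain, which with the alpha v chain frees TGF-beta from its latent form. It read 9.17 and 9.65 in wild type and 10.58 and 11.14 in lymphoma, higher on both lymphoma arrays by 1.45 on average (SE 0.27, adjusted p = 0.039 in limma). Its call ended under quantile normalization (adjusted p = 0.076) and over all probe sets (adjusted p = 0.094). Its partner chain Itgav read 10.04 and 10.23, then 10.69 and 11.24, a difference of 0.83 that did not pass (adjusted p = 0.13). Nrros, which tethers latent TGF-beta 1 to the surface of myeloid cells, read 9.17 and 9.16 in wild type and 7.46 and 7.43 in lymphoma, with almost no spread within either group. It was 3.30-fold lower (adjusted p = 0.0064 in limma). On the same arrays 5 of 8 macrophage and monocyte markers also passed as lower, and the part of those cells in the fall of Nrros was not tested. Lrrc32, known as GARP, does the same on regulatory T cells and platelets. It read 9.45 and 8.96, then 9.16 and 7.55, so its groups overlapped.

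Of 9 receptors and co-receptors, Cd109 rose, Tgfbr3 fell and 7 did not pass. CD109 is a lipid-anchored surface protein that binds TGF-beta together with the receptors and dampens the signal. Its log2 intensity was 6.21 and 5.92 in wild type and 10.56 and 10.35 in lymphoma, a rise of 4.39 (SE 0.20, 21.0-fold, adjusted p = 0.00092 in limma). Thus the co-receptors Cd109 and Tgfbr3 differed in opposite directions on both lymphoma arrays. The type I receptor Acvrl1, also called ALK1, read 7.91 and 8.06, then 7.07 and 7.23, and did not pass (-0.84, adjusted p = 0.061 in limma). It did with a robust variance trend (adjusted p = 0.047). Leaving out single arrays moved the Acvrl1 difference between -0.92 and -0.76. Of the 9, 7 had negative differences, as had 11197 of all 19938 genes.

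Of 9 activin and bone morphogenetic protein (BMP) receptors, Acvr1 rose and the other 8 did not pass. Acvr1, the type I receptor ALK2 of the BMP branch, read 6.79 and 7.10 in wild type and 8.36 and 8.69 in lymphoma, a 2.99-fold rise (adjusted p = 0.014 in limma). Bmpr1a, another type I receptor of that branch, read 6.64 and 7.13, then 8.32 and 10.54. Both lymphoma values were higher, but they lay 2.22 log2 units apart and the difference of 2.55 (SE 0.66) did not pass (adjusted p = 0.11). In limma it was 3.65 (adjusted p = 3.5e-08) when lymphoma array 1 was left out and 1.44 (adjusted p = 0.00081) when lymphoma array 2 was, fits in which a single array stood for lymphoma.

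No gene passed in limma among the 9 genes of the SMAD list, which includes the anchor Zfyve9 (2 at an unadjusted p under 0.05). Nor did any of 7 nuclear repressors (1 unadjusted) or 12 ubiquitin enzymes, phosphatases and adaptors (4 unadjusted). Beside the genes above, the largest SMAD difference was that of Smad1, a carrier of BMP signals, at -0.81 (adjusted p = 0.16 in limma). Leaving out single arrays moved the Smad1 difference between -1.11 and -0.52. Zfyve9 differed by -0.20, with -0.38 when wild type array 1 was left out and -0.024 when wild type array 2 was. Among the repressors, Tgif1 differed by 0.70 (adjusted p = 0.18 in limma, and 0.48 to 0.93 when single arrays were left out) and Snw1 by 0.29. Pmepa1, a membrane adaptor that binds SMAD2 and SMAD3 and limits their activation, read 9.40 and 9.30 in wild type and 10.33 and 10.12 in lymphoma. Its groups did not overlap and it missed the threshold narrowly (0.88, adjusted p = 0.056 in limma). It passed when array medians were subtracted (0.91, adjusted p = 0.033), with the lowest tercile left out (adjusted p = 0.044) and with a robust variance trend (adjusted p = 0.044). Among the settings where it did not pass were quantile normalization (adjusted p = 0.054) and all probe sets (adjusted p = 0.11). Leaving out single arrays moved the Pmepa1 difference between 0.77 and 0.98. Smurf1, a ubiquitin ligase that acts on SMADs and receptors, differed by -0.66 (adjusted p = 0.15).

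Of 10 measured genes known to be induced by TGF-beta, Bhlhe40 rose, Tgfbi fell and 8 did not pass. The transcription factor Bhlhe40 read 9.26 and 10.16 in wild type and 11.60 and 11.80 in lymphoma, a 3.97-fold rise (adjusted p = 0.022 in limma; 0.064 over all probe sets). Tgfbi, a secreted matrix protein that myeloid cells also make, read 10.34 and 10.31 in wild type and 8.21 and 8.79 in lymphoma, a 3.55-fold fall (adjusted p = 0.013). Macrophage and monocyte markers were lower on the same arrays, and their part in the fall of Tgfbi was not tested. The genes on this list did not share a direction: 4 had positive and 6 negative differences, with Smad7 at -0.31, Skil at 0.29 and Pmepa1 at 0.88. The calls on Nrros, Itgb8, Cd109, Acvr1, Tgfbi and Bhlhe40 all ended in both fits that kept a single wild type array. No gene at all was called in those fits, so they cannot weigh single genes. Each of these genes kept its direction there.

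**Figure D3:**
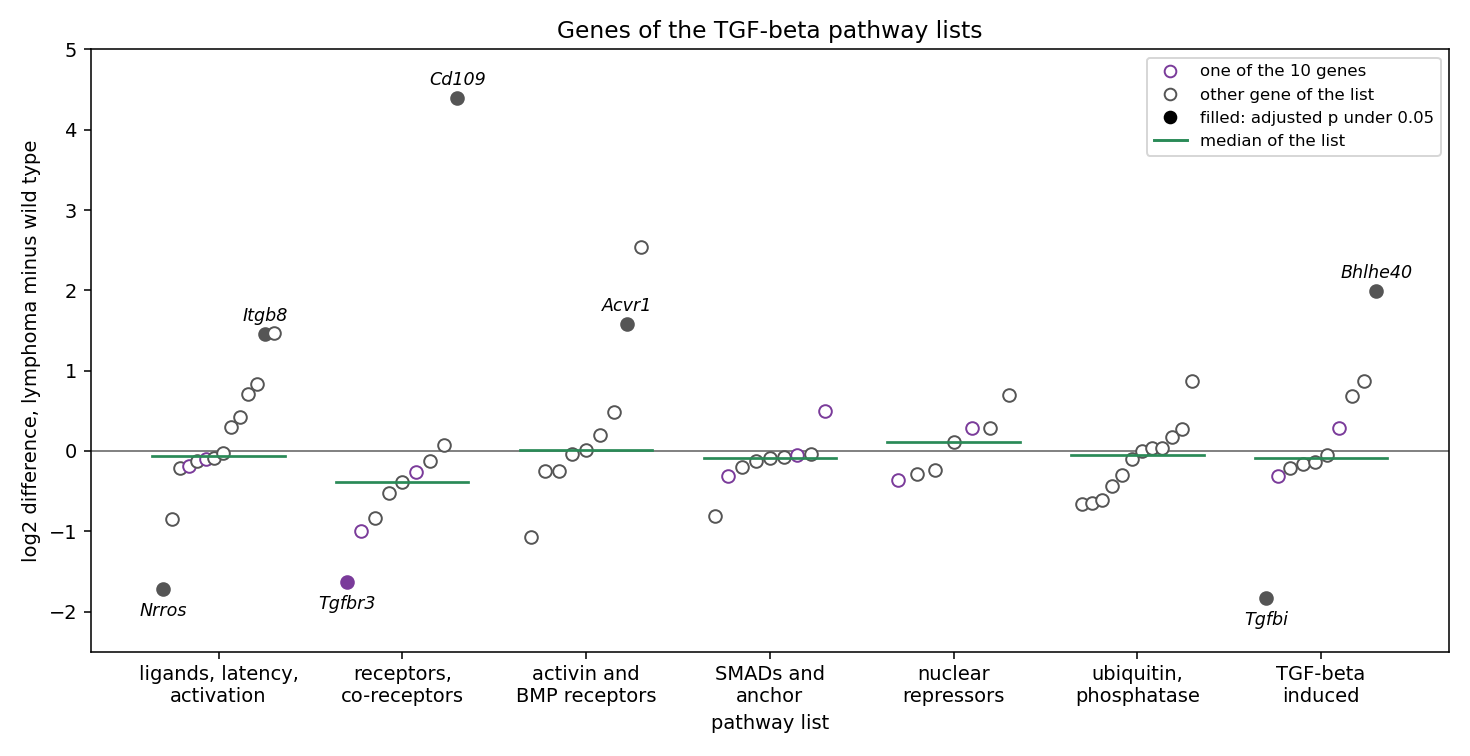
Log2 difference, lymphoma minus wild type (y axis), of each gene of the 7 pathway lists (x axis), filled where the adjusted p was under 0.05, purple for the 10 genes of the receptor and SMAD arm, with a green line at the median of each list. Cd109 stands highest at 4.39, Tgfbi (-1.83), Nrros (-1.72) and Tgfbr3 (-1.63) lowest, and the SMAD, repressor and ubiquitin lists hold no filled point.

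The lymphoma arrays also differed from each other. Tgfb3 was the 1 gene of the 10 whose lymphoma arrays lay over 1 log2 unit apart, and Ski followed with 0.72. Over the 67 pathway genes 7 had such a gap in lymphoma (10.4%, against 3.91% of all genes) and none had it in wild type (1.08% of all genes). The limit set by the choice of the lists holds for these shares too. Nedd4l, a ubiquitin ligase of SMADs, read 9.84 on lymphoma array 1 and 6.46 on lymphoma array 2, against 8.94 and 8.67 in wild type. Thbs1, thrombospondin 1, which can free latent TGF-beta, read 10.001 and 6.78, against 6.79 and 7.06. Lymphoma array 1 was thus the higher for both, and it was the lower for Bmpr1a. The other genes were Itgae, Lrrc32 and Zeb2, chosen like the rest of this group after their values were seen. In contrast, Tgfbr1, Smad2, Smad3 and Smad7 had gaps of at most 0.06 between the lymphoma arrays, while Tgfb1 had its wider gap in wild type (0.71 against 0.11).

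**Figure D4:**
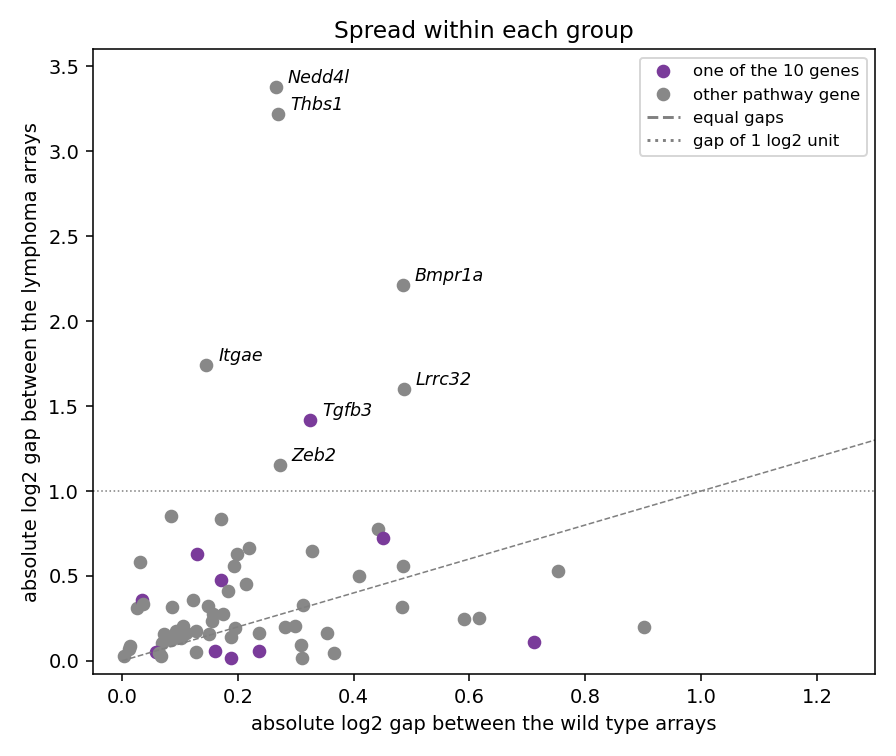
Absolute log2 gap between the 2 wild type arrays (x axis) and between the 2 lymphoma arrays (y axis) for the 67 genes of the pathway lists, with the 10 genes of the receptor and SMAD arm in purple. The 7 named genes lie above the dotted line at a lymphoma gap of 1, led by Nedd4l (3.38) and Thbs1 (3.22), and no gene has a wild type gap above 1.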

How the data were processed

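The values are the authors' deposited intensities, on a linear scale with 1 value for each probe set of an array, and were made with Affymetrix Expression Console per the submitters' processing notes. The sources used here do not give its version or the background correction, normalization and summarisation. No detection calls were used, so no gene could be set against background, and differences of dim genes can be understated. The 4 arrays held 35556 probe sets with median intensities of 130 to 142.

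Log2 was taken without pseudocount or filter. Of the probe sets, 21789 had 1 gene symbol, 1621 several and 12146 none listed, and the highest mean over the arrays chose the probe set of each of 19938 genes. A model with the group term alone was fitted in limma 3.58.1 under R 4.3.3, with a variance trend and two-sided tests, Benjamini-Hochberg adjustment over all genes and a threshold of 0.05. The code of the fit was tested on simulated arrays with independent noise of equal spread in both groups. That test cannot weigh the results for these samples, whose lymphoma arrays had more large gaps. Figures were drawn with matplotlib 3.10.9.

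The 10 genes and all lists were chosen with earlier results of these data known. Named beside the 10 are Tet2, up to 4 called genes of each pathway list or, where none was called, the 2 with the largest differences, and genes said to be chosen later. Acvrl1, Itgav, Lrrc32, Bmpr1a and the genes with large gaps between lymphoma arrays were named after their values were seen. Marker lists cover T, CD8 T, regulatory T, B, dendritic, natural killer, macrophage and monocyte, platelet, erythroid, and stromal and endothelial cells. Alternatives were quantile normalization, median subtraction, a filter on low levels, no or a robust variance trend, averaged or all probe sets, a pseudocount of 16, array weights, the replicate number as a block and leaving out each array.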

Additional observations from a re-analysis of the deposited data

How the results depend on the processing

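Of 140 alternative values of the 10 genes, 129 kept their direction and their side of the threshold. Much of this was fixed in advance, so the count does not measure robustness. The low-level filter, the trend choices, averaged or all probe sets, array weights and the block returned the same estimate for each of the 10. With a single wild type array no gene at all was called, so genes not called in the main fit could not change side. With a robust variance trend, 2 of the 10 genes fell (Tgfbr2 at -0.998, adjusted p = 0.047 in limma, beside Tgfbr3) and 5 pathway genes fell. With every probe set tested, 138 probe sets were higher and 301 lower, 0 of the 10 genes fell (2 at an unadjusted p under 0.05; Tgfbr3 stayed at -1.63) and 2 pathway genes rose. With the replicate number as a block, 2 of the 10 fell (Tgfbr2 at -0.998, adjusted p = 0.045), and Bmpr1a also passed (adjusted p = 0.036). The labels do not say that the numbers pair samples. The difference between arrays 1 and 2 correlated at r = 0.23 between the groups, across genes, which are not independent replicates.

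Leaving out 1 array moved the calls over all genes between 0 and 1057 higher and between 0 and 843 lower. Both were 0 in limma with a single wild type array. The counts at an unadjusted p under 0.05 were then 1418 higher and 890 lower without wild type array 1, and 929 and 1120 without wild type array 2. Between 0 and 2 of the 10 genes fell (2 unadjusted in each case of 0). Of the pathway genes 0 to 8 rose and 0 to 7 fell, with 7 and 7 unadjusted without wild type array 1, and 9 and 9 without wild type array 2. Differences ranged from -0.54 to 0.17 for Tgfb1, -0.81 to 0.61 for Tgfb3, -1.24 to -0.76 for Tgfbr2, -1.94 to -1.31 for Tgfbr3, -0.36 to -0.17 for Tgfbr1, -0.14 to 0.026 for Smad2, 0.47 to 0.52 for Smad3, -0.43 to -0.19 for Smad7, -0.72 to 0.0063 for Ski and 0.11 to 0.47 for Skil. The number of arrays limits the precision, and the cause of these changes was not tested.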

Other observations

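Foxp3, the lineage factor of regulatory T cells, a population that TGF-beta helps to form, had a log2 intensity of 10.88 and 10.82 on the wild type arrays and of 10.10 and 12.08 on lymphoma arrays 1 and 2. Lrrc32 and Itgae, both often found on regulatory T cells, lay the other way, at 9.16 and 8.996 on lymphoma array 1 and 7.55 and 7.25 on lymphoma array 2. Their wild type values were 9.45 and 8.96 for Lrrc32 and 8.36 and 8.22 for Itgae. The interleukin 2 receptor chain Il2ra was also lower on lymphoma array 2, at 9.39 against 10.75 on lymphoma array 1, with 10.83 and 10.31 in wild type. The inhibitory receptor Ctla4 went with Foxp3, at 11.81 on lymphoma array 1 and 12.61 on lymphoma array 2, against 10.86 and 11.41 in wild type. Helios, encoded by Ikzf2, was at 11.22 and 11.12. The 2 lymphoma arrays are single samples, and these values are given without a test.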
